A study of Mus musculus with 16 samples.

Results

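The genes described here encode the enzymes and carriers that break down amino acids in the liver and turn their nitrogen into urea. A list of 55 symbols was taken, and 52 of them were measured, among 19935 genes tested in all; each was read from the probe set with the highest mean among those annotated to that gene alone. Ass1 was left without a value because its probe sets are shared with the locus Gm5424, Gls2 and Sds had no probe set under those symbols in the annotation used, and Mut was read under its present symbol, Mmut. Liver RNA came from 16 male mice on a mixed Sv129 and C57Bl/6 background, each hybridised to 1 Affymetrix whole-transcript array. There were 4 wild-type fed, 5 wild-type fasted, 4 PPARβ/δ knockout fed and 3 PPARβ/δ knockout fasted mice, and fasted mice went without food for 24 h. The series text states 4 to 5 mice per group, and 3 knockout fasted arrays were analysed here. The knockout is labelled as PPARβ/δ, the receptor encoded by Ppard; the sources used here give neither the deleted part of the gene nor the age of the mice. All mice were under gas anaesthesia when killed. Values are log2 intensities after the RMA normalization of the depositors, so a difference of 1 is a doubling, and levels of different genes are not compared.

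The urea cycle joins ammonia and aspartate nitrogen into urea, in steps divided between the mitochondrion and the cytosol of hepatocytes. The carbon skeletons left behind by deaminated amino acids go to glucose, ketone bodies or oxidation. In a fast, amino acids released by muscle reach the liver, and glucagon and glucocorticoids are known inducers of several of these enzymes. The branched-chain amino acids are an exception in that liver has little of the aminotransferase that starts their breakdown, and handles mainly their keto acids.

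Ppard, the targeted gene, lay between 4.78 and 5.50 in wild-type fed, 4.40 and 4.67 in wild-type fasted, 4.45 and 5.00 in knockout fed and 4.36 and 4.58 in knockout fasted mice. These ranges overlap between genotypes within each feeding state. Hepatocyte markers were present on every array: Alb, serum albumin, had group means of 12.28 to 12.33, and of 6 hepatocyte markers measured only Hnf4a changed in any comparison. Some patterns set single mice apart. Acute phase genes (8 measured) had a mean score, relative to each gene's average, of 1.93 in knockout fed mouse 1 and 3.12 in mouse 4. Knockout fed mice 3 and 2 had 0.90 and -0.42, and the remaining 12 mice -1.16 to 0.27. Acinar pancreas markers (7 measured) reached a score of 2.39 in 1 animal, wild-type fasted mouse 5, against -0.31 to 0.27 elsewhere. Stellate cell markers (5 measured) had a score of 0.97 in wild-type fed mouse 4, against -0.42 to 0.55 elsewhere. Calls of member genes that were lost without these mice are given with the results, and for other genes some losses are given only as counts of mice. Counts of differences above or below 0 were not recomputed without these mice. In bulk tissue fewer cells of a type and less RNA per cell cannot be told apart.

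Fasting changed about as many genes of amino acid catabolism upward as downward in wild-type liver. With limma's moderated test and Benjamini-Hochberg adjustment over all genes (a gene is said to have risen or fallen at an adjusted p under 0.05), 8 of the 52 rose and 9 fell in wild-type mice. Among all genes, 3.30% rose and 5.92% fell in that comparison (9.22% together), and 16.2% passed among the 11961 brighter genes, to which 51 of the 52 belong. The median change of the 52 genes was 0.00, against 0.02 for all genes. In knockout mice 5 of the 52 rose and none fell, with a median of 0.09. Among all genes 1.87% rose, 1.80% fell and 3.67% passed in that comparison, with a median of -0.02. Among the brighter genes 3.49% rose, 3.36% fell and 6.86% passed. Dao, D-amino acid oxidase, averaged 2.17 to 2.32 in the 4 groups, under the dim limit of 2.79, and its values carry little information. The map of all members by mouse shows which rows change.

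**Figure D1:**
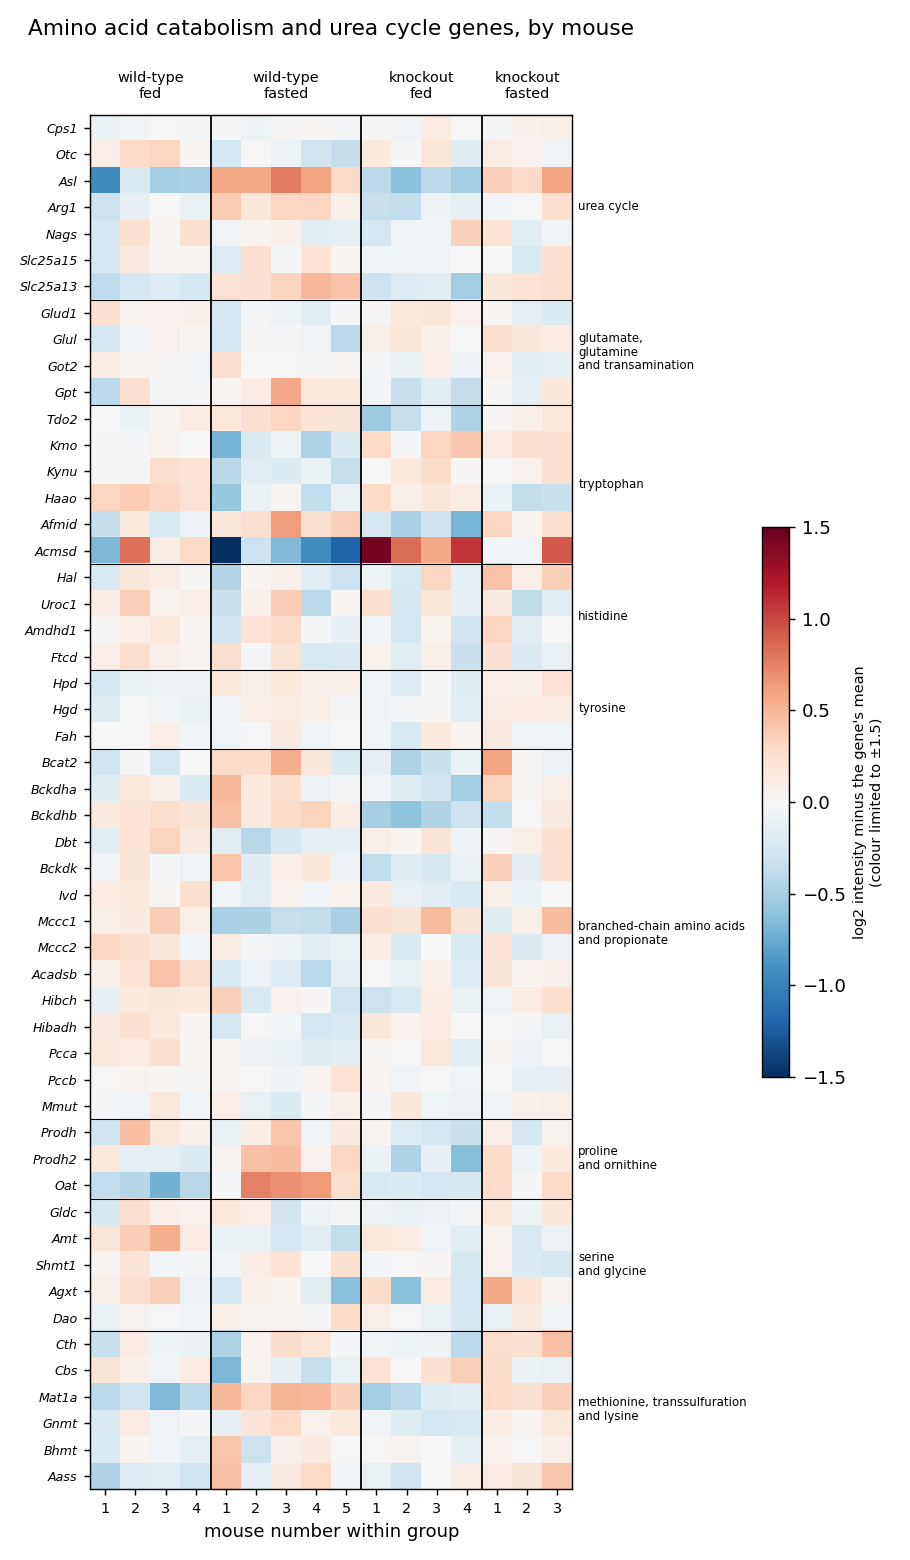
Each cell is the log2 intensity of 1 gene (rows, grouped by pathway) in 1 mouse (columns, grouped by genotype and feeding) minus that gene's mean over all 16 mice, with colour limited to ±1.5. The rows of Asl, Slc25a13, Oat and Mat1a are low in fed and high in most fasted mice of both genotypes, and the row of Acmsd has the widest range, from 3.90 to 7.50 in log2 intensity.

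Of the 7 genes that passed in at least 2 of the 6 comparisons, 5 had a RefSeq promoter window, from 250 bases before to 50 bases after the start of transcription in GRCm38.p6. Windows of 4 of them, Slc25a13, Afmid, Mccc1 and Bckdhb, are shown as examples of genes with more than 1 call. Capitals mark matches, on either strand, to 5 words. The core of the cAMP response element is TGACG. The glucocorticoid receptor is known to bind the word AGAACA. The C/EBP family binds words of the form TTGCNNAA, where N is any base. Nuclear receptors of the PPAR and HNF4 kind bind AGGTCA. The TATA box was searched as TATAAA. No word contains another. Of 2 windows of Bckdhb, the first along the chromosome is shown.
Slc25a13, chr6:6217124-6217423, minus strand: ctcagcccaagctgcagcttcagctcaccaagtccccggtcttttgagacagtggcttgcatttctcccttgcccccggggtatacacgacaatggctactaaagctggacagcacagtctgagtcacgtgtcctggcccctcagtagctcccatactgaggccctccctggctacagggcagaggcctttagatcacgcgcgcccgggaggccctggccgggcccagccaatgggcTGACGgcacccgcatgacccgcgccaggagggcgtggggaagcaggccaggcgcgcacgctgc
Afmid, chr11:117825669-117825968, plus strand: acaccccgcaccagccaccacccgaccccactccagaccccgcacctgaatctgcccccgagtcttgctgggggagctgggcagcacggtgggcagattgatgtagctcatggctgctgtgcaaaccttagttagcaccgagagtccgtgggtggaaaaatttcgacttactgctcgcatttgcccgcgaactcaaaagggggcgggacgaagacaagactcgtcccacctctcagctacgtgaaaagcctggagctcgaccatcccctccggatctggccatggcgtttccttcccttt
Mccc1, chr3:36000629-36000928, minus strand: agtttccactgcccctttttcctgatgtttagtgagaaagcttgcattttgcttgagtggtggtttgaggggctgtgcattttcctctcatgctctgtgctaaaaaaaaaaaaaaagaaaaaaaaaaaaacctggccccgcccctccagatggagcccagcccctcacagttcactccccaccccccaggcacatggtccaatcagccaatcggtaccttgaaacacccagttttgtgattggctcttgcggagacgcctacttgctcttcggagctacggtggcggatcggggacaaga
Bckdhb, chr9:83924887-83925186, plus strand: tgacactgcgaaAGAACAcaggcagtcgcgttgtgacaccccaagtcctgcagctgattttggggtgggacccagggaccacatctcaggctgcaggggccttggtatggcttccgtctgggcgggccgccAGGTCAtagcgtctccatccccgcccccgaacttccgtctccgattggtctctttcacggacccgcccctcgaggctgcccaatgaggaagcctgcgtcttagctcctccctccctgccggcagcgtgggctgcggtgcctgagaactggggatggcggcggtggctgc
Slc25a13 held TGACG 13 bases before its start (position -13), and Bckdhb held AGAACA at -238 and AGGTCA at -119. The windows of Afmid and Mccc1, and the second of Bckdhb, held none of the words, which says only that those letters are not in them. TGACG stood in 20.8% and AGGTCA in 16.3% of all 32851 promoter windows, against 9 and 18 of the 49 windows of member genes. For AGAACA, TTGCNNAA and TATAAA the shares of all windows were 19.0%, 10.8% and 13.6%, and 7, 6 and 6 of the 49 held them. A match is a description of the sequence and not a bound site.

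In the urea cycle, fasting raised Asl, Slc25a13 and Arg1 in wild-type mice and lowered Otc, while Cps1, Nags and Slc25a15 did not pass. Asl, argininosuccinate lyase, splits argininosuccinate into arginine and fumarate. Asl, in wild-type liver, read 8.95, 9.69, 9.38 and 9.41 (fed) and 10.47, 10.47, 10.67, 10.49 and 10.20 (fasted). In knockout liver Asl read 9.51, 9.28, 9.51 and 9.39 (fed) and 10.26, 10.18 and 10.49 (fasted). Every fasted mouse stood above every fed mouse in both genotypes. The rise was 1.10 ± 0.12 (SE), or 2.15-fold, in wild-type mice (adjusted p = 3.44e-05), and 0.89 ± 0.14, or 1.85-fold, in knockout mice (adjusted p = 0.00216). Slc25a13 encodes citrin, the mitochondrial aspartate and glutamate carrier that supplies aspartate to the cycle. Slc25a13, in wild-type liver, read 9.20, 9.31, 9.38 and 9.31 (fed) and 9.79, 9.81, 9.91, 10.06 and 10.00 (fasted). In knockout liver Slc25a13 read 9.27, 9.38, 9.41 and 9.06 (fed) and 9.75, 9.78 and 9.82 (fasted). Its fed and fasted mice were again fully apart in both genotypes, by 0.61 ± 0.08 (adjusted p = 0.000135) and 0.51 ± 0.09 (adjusted p = 0.00506). Without knockout fed mice 1 and 4 the knockout value of Slc25a13 was 0.39 and did not pass (adjusted p = 0.0713).

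Arg1, arginase, releases urea and ornithine from arginine. Arg1, in wild-type liver, read 10.43, 10.62, 10.74 and 10.63 (fed) and 11.12, 10.92, 11.07, 11.06 and 10.83 (fasted). In knockout liver Arg1 read 10.40, 10.38, 10.67 and 10.61 (fed) and 10.70, 10.74 and 10.99 (fasted). Arg1 rose in wild-type mice by 0.40 ± 0.09 (adjusted p = 0.0107), while in knockout mice its 0.30 ± 0.10 did not pass (adjusted p = 0.15). Fed and fasted values of Arg1 did not overlap in either genotype. The share of all genes that separate in this way was not computed. Otc, ornithine transcarbamylase, makes citrulline in the mitochondrion. Otc, in wild-type liver, read 9.23, 9.42, 9.45 and 9.17 (fed) and 8.87, 9.12, 9.06, 8.85 and 8.77 (fasted). In knockout liver Otc read 9.28, 9.10, 9.31 and 8.95 (fed) and 9.24, 9.19 and 9.08 (fasted). The fasted wild-type mice all lay below the fed ones, a fall of -0.38 ± 0.10 (adjusted p = 0.0172), whereas knockout mice overlapped, at 0.01 ± 0.11. The call of Otc was lost without wild-type fed mouse 2 (-0.35, adjusted p = 0.0579) or mouse 3 (-0.34, adjusted p = 0.0712). Cps1, carbamoyl phosphate synthetase, which commits ammonia to the cycle, had group means of 11.64 to 11.73 and differences of 0.03 ± 0.06 and 0.03 ± 0.07 with fasting. Nags, which makes the activator of Cps1, and the ornithine carrier Slc25a15 had fasting differences of -0.10 to 0.07 in both genotypes.

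Oat, ornithine aminotransferase, links ornithine to glutamate and is a marker of hepatocytes around the central vein. Oat, in wild-type liver, read 9.83, 9.77, 9.48 and 9.78 (fed) and 10.16, 10.95, 10.88, 10.83 and 10.46 (fasted). In knockout liver Oat read 9.96, 9.99, 9.94 and 9.95 (fed) and 10.48, 10.16 and 10.48 (fasted). Wild-type fasted mouse 1 was the lowest of its group, yet every fasted mouse stood above every fed mouse in each genotype. The wild-type rise of Oat was 0.94 ± 0.14, or 1.92-fold (adjusted p = 0.000332), and in knockout mice 0.41 ± 0.16 did not pass (adjusted p = 0.189). The proline dehydrogenase genes Prodh and Prodh2 had differences of 0.01 and 0.35 in wild-type mice and of 0.15 and 0.44 in the knockout, none of which passed. Mat1a makes S-adenosylmethionine from methionine. Mat1a, in wild-type liver, read 11.10, 11.21, 10.85 and 11.10 (fed) and 11.99, 11.82, 12.02, 11.99 and 11.85 (fasted). In knockout liver Mat1a read 11.00, 11.11, 11.33 and 11.34 (fed) and 11.80, 11.74 and 11.87 (fasted). The groups were apart by 0.87 ± 0.09, or 1.83-fold, in wild-type (adjusted p = 1.18e-05) and by 0.61 ± 0.10, or 1.53-fold, in knockout mice (adjusted p = 0.00282).

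The genes that use S-adenosylmethionine and homocysteine after Mat1a did not pass: Gnmt (glycine methyltransferase), Bhmt (which remethylates homocysteine), Cbs and Cth (the transsulfuration enzymes) had fasting differences of -0.32 to 0.46. Bhmt itself stood at 0.16 in wild-type and 0.07 in knockout mice. Its other probe sets gave 0.15 and 0.07, at a mean of 11.66, and 0.18 and 0.24, at a mean of 7.42. Bhmt has a close paralogue, Bhmt2, and some of its signal may be shared with it, which was not tested. Aass, which begins lysine breakdown, rose in wild-type mice. Aass, in wild-type liver, read 9.44, 9.70, 9.73 and 9.59 (fed) and 10.33, 9.76, 10.03, 10.19 and 9.85 (fasted). In knockout liver Aass read 9.78, 9.60, 9.89 and 10.00 (fed) and 10.01, 10.08 and 10.30 (fasted). Its rise was 0.42 ± 0.12 (adjusted p = 0.0321), with 0.31 ± 0.13 in knockout mice (adjusted p = 0.257), and fed and fasted mice did not overlap in either genotype. Hpd, 4-hydroxyphenylpyruvate dioxygenase of tyrosine breakdown, also rose in wild-type mice. Hpd, in wild-type liver, read 11.36, 11.51, 11.53 and 11.53 (fed) and 11.77, 11.68, 11.77, 11.68 and 11.70 (fasted). In knockout liver Hpd read 11.54, 11.42, 11.59 and 11.43 (fed) and 11.71, 11.69 and 11.82 (fasted). Fasted Hpd values all exceeded fed ones, by 0.24 ± 0.06 in wild-type (adjusted p = 0.0242) and 0.25 ± 0.07 in knockout mice (adjusted p = 0.072). Hgd and Fah, the later tyrosine enzymes, had differences of -0.01 to 0.18. The call of Aass was lost without wild-type fed mouse 1 or 4 or wild-type fasted mouse 1, 3 or 4 (0.34 to 0.42, adjusted p 0.0548 to 0.105), and that of Hpd without wild-type fed mouse 1 or wild-type fasted mouse 1 or 3 (0.20 to 0.23, adjusted p 0.0532 to 0.0879). With arrays centred on their common median Aass was 0.38 (adjusted p = 0.0643) and Hpd 0.21 (adjusted p = 0.0697), and Aass had adjusted p = 0.0569 over all probe sets.

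**Figure D2:**
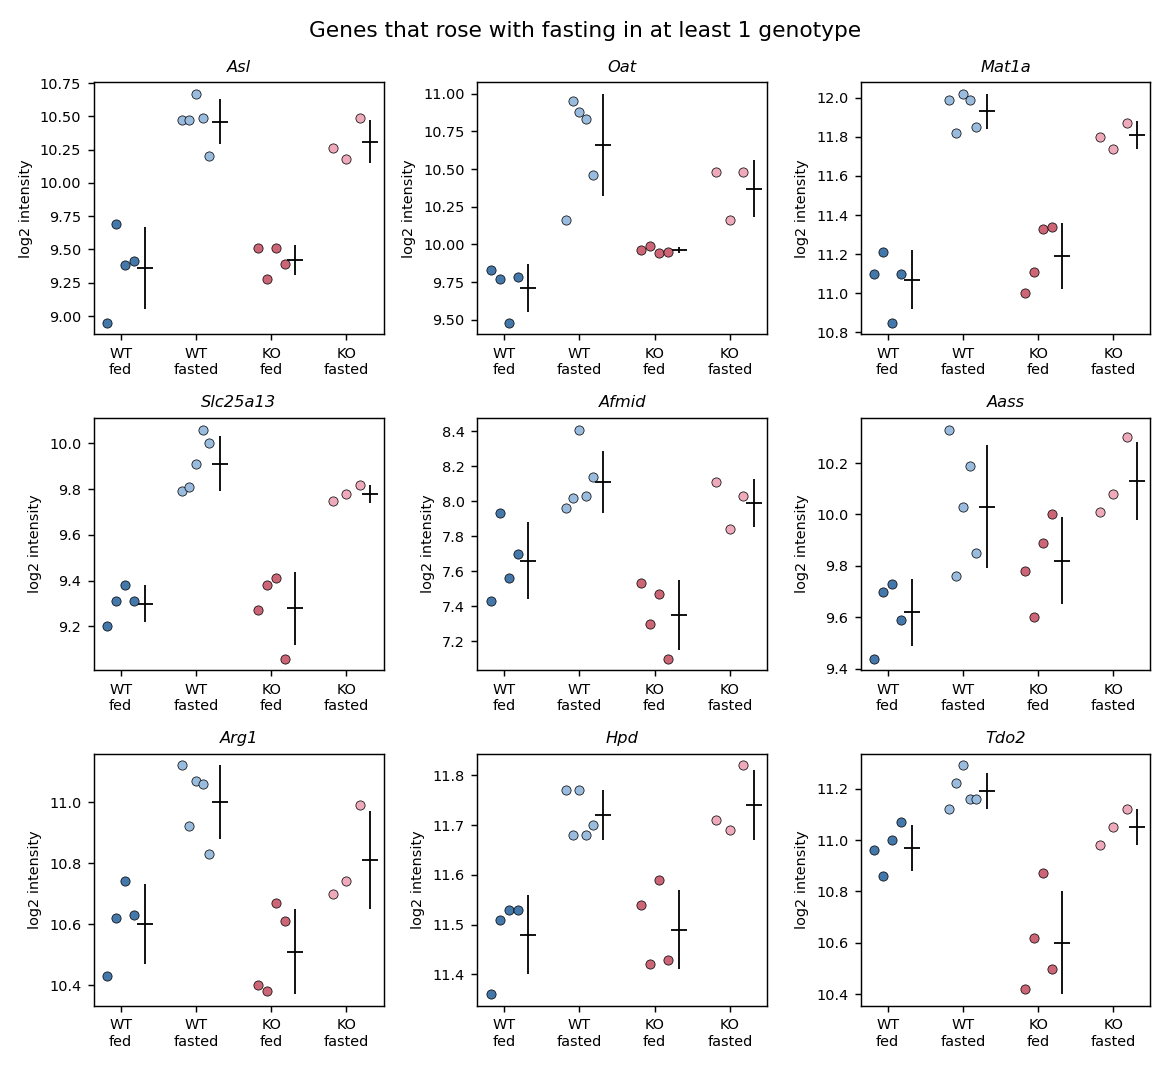
Log2 intensity in each mouse (points) for the 9 genes that rose with fasting in wild-type (WT) or knockout (KO) mice, with the group mean and SD beside the points; each panel has its own axis. In all 9 panels every fasted mouse lies above every fed mouse of its genotype, as for Asl, with fed wild-type mice up to 9.69 and fasted ones from 10.20. The 9 genes were chosen by their fasting call, which favours such separation. The share of all genes that separate in this way was not computed.

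Of 6 genes of the tryptophan pathway, Afmid rose with fasting in wild-type mice and the later-acting Kynu, Haao and Acmsd fell. In knockout mice Tdo2 and Afmid rose and none fell. Among all genes 3.30% rose and 5.92% fell in wild-type mice, and 1.87% rose and 1.80% fell in knockout mice. Kmo, at -0.35 ± 0.11 in wild-type mice (adjusted p = 0.0642), did not pass. Tdo2, tryptophan dioxygenase, catalyses the first step and is a known target of glucocorticoids. Tdo2, in wild-type liver, read 10.96, 10.86, 11.00 and 11.07 (fed) and 11.12, 11.22, 11.29, 11.16 and 11.16 (fasted). In knockout liver Tdo2 read 10.42, 10.62, 10.87 and 10.50 (fed) and 10.98, 11.05 and 11.12 (fasted). Knockout fed mice held most of the lowest values. Tdo2 rose in knockout mice by 0.45 ± 0.10 (adjusted p = 0.0137), and its 0.22 ± 0.08 in wild-type mice did not pass (adjusted p = 0.116); fed and fasted mice were apart in both. Afmid, kynurenine formamidase, acts next. Afmid, in wild-type liver, read 7.43, 7.93, 7.56 and 7.70 (fed) and 7.96, 8.02, 8.41, 8.03 and 8.14 (fasted). In knockout liver Afmid read 7.53, 7.30, 7.47 and 7.10 (fed) and 8.11, 7.84 and 8.03 (fasted). Fasted and fed mice were fully apart. The rise was 0.46 ± 0.12 in wild-type liver (adjusted p = 0.02), and 0.64 ± 0.13 in knockout liver (adjusted p = 0.0119).

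Kynu, kynureninase, cleaves kynurenine and its hydroxylated form. Kynu, in wild-type liver, read 10.10, 10.10, 10.35 and 10.28 (fed) and 9.66, 9.91, 9.87, 9.98 and 9.74 (fasted). In knockout liver Kynu read 10.07, 10.24, 10.36 and 10.10 (fed) and 10.07, 10.15 and 10.31 (fasted). Its wild-type fasted mice all lay below all other mice, a fall of -0.37 ± 0.09 (adjusted p = 0.0132), against -0.01 ± 0.10 in knockout mice. Haao opens the ring of 3-hydroxyanthranilate on the way to NAD. Haao, in wild-type liver, read 10.27, 10.32, 10.26 and 10.16 (fed) and 9.37, 9.85, 9.99, 9.58 and 9.84 (fasted). In knockout liver Haao read 10.24, 10.03, 10.11 and 10.05 (fed) and 9.84, 9.58 and 9.61 (fasted). The fasted mice lay below the fed mice in both genotypes, by -0.53 ± 0.11 in wild-type (adjusted p = 0.00394) and -0.43 ± 0.12 in knockout mice, where the value did not pass (adjusted p = 0.0611). Acmsd diverts the product of Haao away from NAD toward oxidation. Acmsd, in wild-type liver, read 5.39, 6.89, 6.18 and 6.35 (fed) and 3.90, 5.75, 5.40, 5.13 and 4.86 (fasted). In knockout liver Acmsd read 7.50, 6.91, 6.64 and 7.14 (fed) and 6.02, 6.02 and 6.99 (fasted). Values of Acmsd were widely spread within groups, wild-type fed and fasted mice overlapped, and the lowest was wild-type fasted mouse 1. Its fall in wild-type mice was -1.19 ± 0.34 (adjusted p = 0.0345), with -0.70 ± 0.39 in knockout mice (adjusted p = 0.426).

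Several of these tryptophan calls lay near the threshold and were lost when a single mouse was left out. The loss did not always go with a smaller difference: Tdo2 stood at 0.45 both with all mice and without knockout fasted mouse 2. Acmsd lost its call without wild-type fed mouse 2, 3 or 4 or wild-type fasted mouse 1, 4 or 5 (-1.22 to -0.92, adjusted p 0.0581 to 0.117), with quantile normalization (-1.11, adjusted p = 0.0557), over all probe sets (adjusted p = 0.0676), with an intensity trend and robust variance (adjusted p = 0.0787) and in a fit of the 2 groups (adjusted p = 0.0584). Kynu lost it without wild-type fed mouse 3 (-0.32, adjusted p = 0.0587). Afmid lost it in wild-type mice without fed mouse 1 (0.38, adjusted p = 0.0753) or fed mouse 3 (0.43, adjusted p = 0.0706), and in knockout mice without fasted mouse 1 (0.59, adjusted p = 0.062) or fasted mouse 3 (0.62, adjusted p = 0.0563). Tdo2 lost it without knockout fasted mouse 2 (0.45, adjusted p = 0.057) or mouse 3 (0.41, adjusted p = 0.0751) and in a fit of the 2 groups (adjusted p = 0.0937). Without knockout fed mice 1 and 4, Tdo2 was 0.30 (adjusted p = 0.194) and Afmid 0.61 (adjusted p = 0.0743).

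Of 14 genes for branched-chain amino acids and propionate, 4 fell with fasting in wild-type mice and none rose. Falls were also more frequent than rises among all genes there (5.92% against 3.30%, and 10.6% against 5.58% of the brighter genes). None passed in knockout mice with limma, where 4 of the 14 had an unadjusted p under 0.05, as did 15.3% of all genes. Mccc1 encodes the biotin-bearing subunit of methylcrotonyl-CoA carboxylase in leucine breakdown. Mccc1, in wild-type liver, read 7.11, 7.16, 7.40 and 7.12 (fed) and 6.54, 6.55, 6.68, 6.66 and 6.54 (fasted). In knockout liver Mccc1 read 7.28, 7.22, 7.50 and 7.22 (fed) and 6.84, 7.12 and 7.49 (fasted). Wild-type fasted mice were tightly grouped below every other mouse, a fall of -0.60 ± 0.11, or 1.52-fold (adjusted p = 0.00178), whereas knockout mice overlapped, at -0.16 ± 0.12 (adjusted p = 0.629). Acadsb, short/branched-chain acyl-CoA dehydrogenase, acts on the isoleucine skeleton. Acadsb, in wild-type liver, read 8.04, 8.16, 8.39 and 8.21 (fed) and 7.73, 7.87, 7.77, 7.55 and 7.81 (fasted). In knockout liver Acadsb read 7.97, 7.85, 8.04 and 7.76 (fed) and 8.15, 8.01 and 8.03 (fasted). In wild-type mice every fasted value was below every fed one, by -0.45 ± 0.09 (adjusted p = 0.0025); in knockout mice the difference was 0.16 ± 0.10 (adjusted p = 0.47).

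Hibadh works in valine breakdown. Hibadh, in wild-type liver, read 9.98, 10.07, 9.99 and 9.87 (fed) and 9.59, 9.83, 9.80, 9.58 and 9.62 (fasted). In knockout liver Hibadh read 10.01, 9.90, 9.96 and 9.84 (fed) and 9.85, 9.82 and 9.73 (fasted). Hibadh fell in wild-type mice by -0.29 ± 0.07 (adjusted p = 0.0157), with groups apart, and stood at -0.13 ± 0.08 in knockout mice. A second probe set of Hibadh was dim, with a mean of 1.81. Dbt is the E2 subunit of the branched-chain keto acid dehydrogenase. Dbt, in wild-type liver, read 8.08, 8.45, 8.57 and 8.37 (fed) and 8.08, 7.82, 8.0, 8.10 and 8.11 (fasted). In knockout liver Dbt read 8.33, 8.27, 8.43 and 8.16 (fed) and 8.26, 8.33 and 8.48 (fasted). Wild-type fed mouse 1 equalled the fasted mice, and the fall of Dbt was -0.35 ± 0.10 (adjusted p = 0.0317), against 0.06 ± 0.11 in knockout mice. The other subunits, Bckdha and Bckdhb, and the inhibitory kinase Bckdk had wild-type differences of 0.06 to 0.20 and knockout differences of 0.36 to 0.40, none of which passed. Bcat2, Ivd, Mccc2, Hibch, Pcca, Pccb and Mmut had differences of -0.24 to 0.36 (wild-type) and -0.06 to 0.43 (knockout), none of which passed. The call of Dbt was lost without wild-type fed mouse 2, 3 or 4 or wild-type fasted mouse 2 or 3 (-0.34 to -0.28, adjusted p 0.0591 to 0.125), with quantile normalization (-0.31, adjusted p = 0.076), over all probe sets (adjusted p = 0.0526) and in a fit of the 2 groups (adjusted p = 0.0596). Hibadh was lost without wild-type fed mouse 2 (-0.26, adjusted p = 0.0558) and with the median of its probe sets (-0.22, adjusted p = 0.0537).

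Amt, the aminomethyltransferase of the glycine cleavage system, fell in wild-type mice. Amt, in wild-type liver, read 7.90, 8.09, 8.27 and 7.85 (fed) and 7.62, 7.61, 7.47, 7.56 and 7.35 (fasted). In knockout liver Amt read 7.88, 7.84, 7.67 and 7.55 (fed) and 7.78, 7.50 and 7.63 (fasted). The wild-type groups were apart, by -0.50 ± 0.10 (adjusted p = 0.00365), and the knockout groups overlapped, at -0.10 ± 0.11 (adjusted p = 0.768). Its partner Gldc, the glycine decarboxylase, and the serine hydroxymethyltransferase Shmt1 had fasting differences of -0.06 to 0.16. Agxt, which detoxifies glyoxylate, stood at -0.34 ± 0.18 in wild-type and 0.39 ± 0.20 in knockout mice, and neither passed. None of the 4 histidine genes (Hal, Uroc1, Amdhd1, Ftcd) passed, with differences of -0.20 to -0.06 in wild-type mice (0 at an unadjusted p under 0.05 with limma, against 22.6% of all genes) and, in knockout mice, of -0.15 to 0.32 (1 at an unadjusted p under 0.05). Nor did any of the 4 measured genes of glutamate and transamination, of which 1 had an unadjusted p under 0.05 in each genotype. Glud1, glutamate dehydrogenase, was lower by -0.21 ± 0.07 (adjusted p = 0.0902) and -0.21 ± 0.08 (adjusted p = 0.218), and Gpt, alanine aminotransferase, was higher by 0.25 ± 0.12 and 0.25 ± 0.14. Glul, glutamine synthetase of the hepatocytes around the central vein, had -0.09 and 0.10, and Got2, mitochondrial aspartate aminotransferase, 0.02 and -0.06. Their second probe sets gave -0.19 and 0.02 for Glul and 0.03 and -0.07 for Got2.

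**Figure D3:**
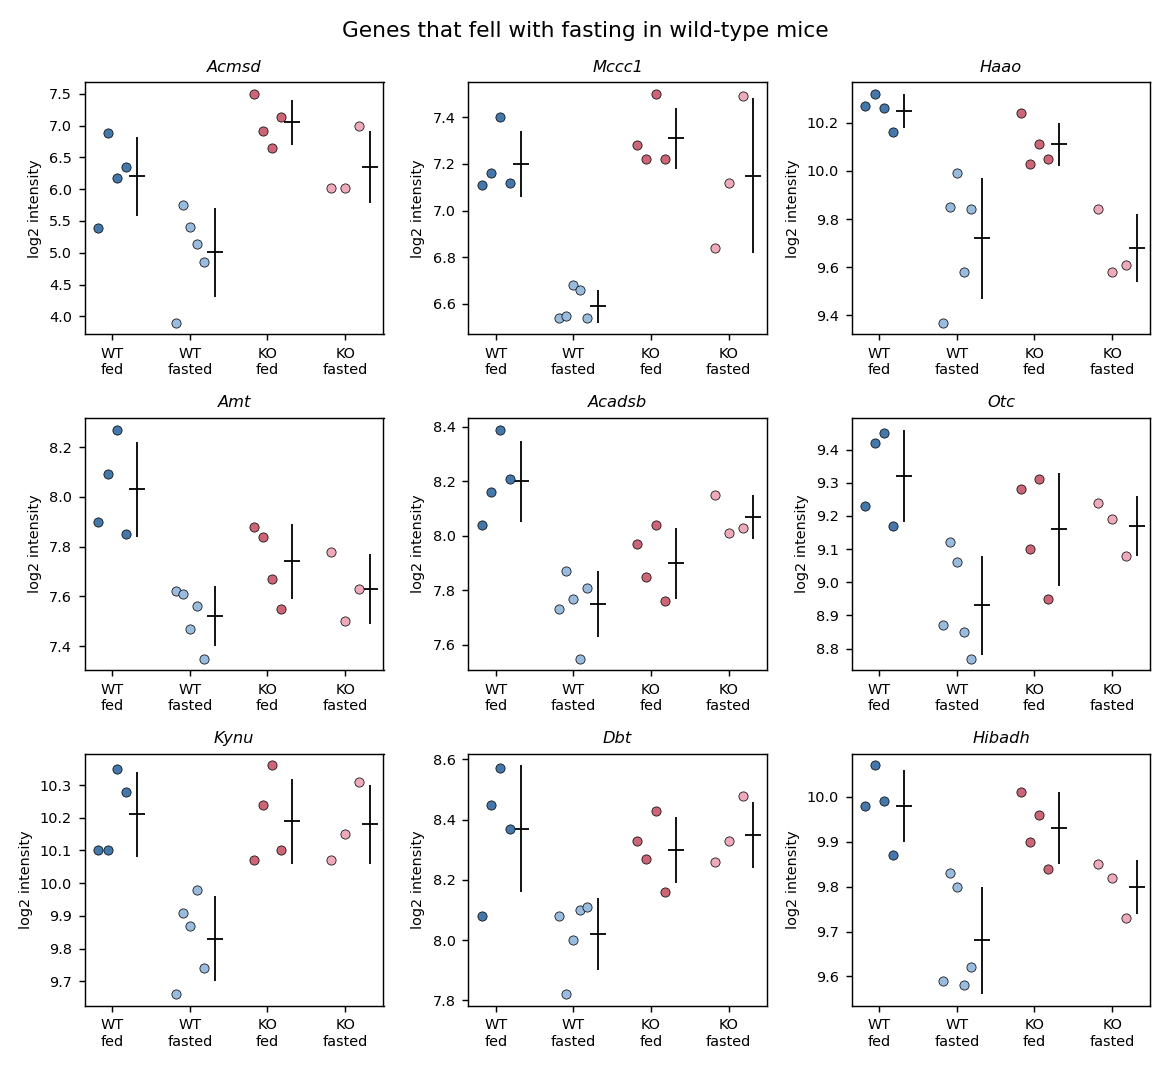
Log2 intensity in each mouse (points) for the 9 genes that fell with fasting in wild-type (WT) mice, with knockout (KO) mice beside them and the group mean and SD next to the points; each panel has its own axis. Mccc1 reads 6.54 to 6.68 in wild-type fasted mice and 6.84 to 7.50 in all other mice, while fed and fasted knockout mice overlap in every panel except that of Haao. The 9 genes were chosen by their wild-type fasting call, which favours separation in wild-type over knockout mice. The share of all genes that separate in this way was not computed. None of the 9 passed the test of a difference between the fasting responses of the genotypes.

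The fasting changes of the 2 genotypes share no mouse and can be set side by side. All 8 genes that rose in wild-type mice had a difference above 0 in knockout mice, and 4 of them (Asl, Slc25a13, Mat1a, Afmid) passed there too; the median of the 8 was 0.54 in wild-type and 0.46 in knockout mice. Of the 9 that fell in wild-type mice, 6 were below 0 in knockout mice, 3 (Otc, Dbt, Acadsb) were above 0 and none passed, and their medians were -0.45 in wild-type and -0.10 in knockout mice. Both lists were chosen by their wild-type values, which favours larger wild-type medians, so the medians do not show a difference between genotypes. The 5 genes that rose in knockout mice, chosen the other way, had a median of 0.61 in each genotype. Across the 52 genes the changes correlated with r = 0.82, and across all 19935 genes with r = 0.49. The 19935 include the dim genes, to which 1 of the 52 belongs, so the values are not like for like. A correlation over the brighter genes was not computed. Genes measured on the same arrays are not independent, so these values describe the data and are not tested.

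The difference between the fasting responses was tested directly, as the interaction of genotype and feeding. None of the 52 genes passed with limma (10 had an unadjusted p under 0.05), and 2 of all genes did (0.01%), with 12.2% of all genes at an unadjusted p under 0.05. The smallest adjusted p was that of Acadsb, 0.15, at 0.62 ± 0.13, the difference between 0.16 in knockout and -0.45 in wild-type mice. Mccc1 stood at 0.45 ± 0.16 (adjusted p = 0.306), Amt at 0.40 ± 0.15 (adjusted p = 0.315), Otc at 0.39 ± 0.15 (adjusted p = 0.311), Dbt at 0.40 ± 0.15 (adjusted p = 0.302) and Oat at -0.53 ± 0.21 (adjusted p = 0.325). Agxt and Hal, which had no fasting call in either genotype, stood at 0.73 ± 0.27 (adjusted p = 0.311), the largest value, and at 0.50 ± 0.20 (adjusted p = 0.325). A smaller fasting change in knockout mice is therefore not established for any single gene of the list. Of the 52 interaction values 38 were above 0, as were 44.6% of those of all genes, and the medians were 0.15 and -0.03. The branched-chain group had 13 of 14 above 0 (median 0.27), the tryptophan group 6 of 6 (median 0.26) and the histidine group 4 of 4 (median 0.22).

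**Figure D4:**
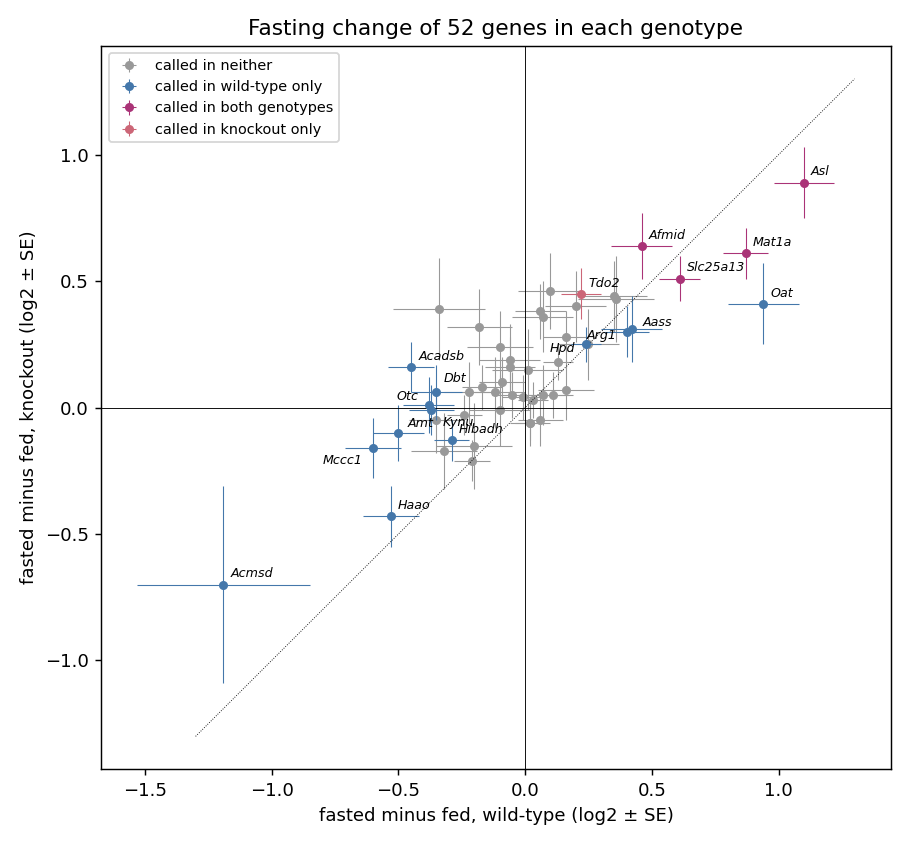
Fasted minus fed difference in wild-type mice (horizontal) and in knockout mice (vertical), in log2 units with SE bars, for 52 genes; colours show in which genotype limma's adjusted p was under 0.05, and the dotted line marks equal change. Asl lies farthest up in both, at 1.10 and 0.89, and Acadsb, at -0.45 and 0.16, lies left of the vertical zero line but above the horizontal one.

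The knockout altered few of these genes. In fed mice 1 of 52 passed, Bckdhb, which was lower (0.677% of all genes and 1.37% of the brighter genes passed). In fasted mice 1 passed, Mccc1, which was higher (0.537% of all genes and 1.04% of the brighter genes). In the mean of the knockout differences over both feeding states, Kmo and Acmsd were higher and Bckdhb lower (1.55% of all genes and 2.96% of the brighter genes). The medians of the 52 genes were -0.07 in fed, 0.02 in fasted and -0.03 in the mean of both. Bckdhb is the E1 beta subunit of the dehydrogenase that commits branched-chain keto acids to oxidation. Bckdhb, in wild-type liver, read 8.64, 8.72, 8.77 and 8.70 (fed) and 8.95, 8.64, 8.80, 8.84 and 8.62 (fasted). In knockout liver Bckdhb read 8.01, 7.91, 8.06 and 8.20 (fed) and 8.14, 8.51 and 8.64 (fasted). All knockout fed mice lay below all wild-type mice, and the knockout fasted mice ran from below to within the wild-type range. The difference in the fed state was -0.66 ± 0.10, or 1.58-fold lower (adjusted p = 0.00544), and in the fasted state -0.34 ± 0.11 (adjusted p = 0.222), with a mean of -0.50 ± 0.07 (adjusted p = 0.00193). Both calls of Bckdhb held without any single mouse and without knockout fed mice 1 and 4. The partner subunits did not pass, with Bckdha at -0.22 ± 0.13 and Dbt at -0.07 ± 0.10 in fed mice.

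Kmo, kynurenine 3-monooxygenase, lies between Afmid and Kynu in the tryptophan pathway. Kmo, in wild-type liver, read 9.31, 9.27, 9.35 and 9.30 (fed) and 8.60, 9.08, 9.22, 8.83 and 9.08 (fasted). In knockout liver Kmo read 9.59, 9.26, 9.61 and 9.70 (fed) and 9.41, 9.54 and 9.52 (fasted). Knockout fasted mice all stood above wild-type fasted mice, and fed mice overlapped. The mean knockout difference of Kmo was 0.38 ± 0.08 (adjusted p = 0.0299), from 0.23 ± 0.12 in fed and 0.53 ± 0.12 in fasted mice, neither of which passed alone (adjusted p = 0.419 and 0.0621). Acmsd was higher by 1.09 ± 0.26 in the mean of both states, or 2.13-fold (adjusted p = 0.0416), from 0.85 ± 0.36 in fed and 1.34 ± 0.37 in fasted mice (adjusted p = 0.312 and 0.149). In fasted mice every knockout value of Acmsd exceeded every wild-type value. Mccc1 was higher in knockout fasted mice by 0.56 ± 0.12 (adjusted p = 0.0459), with 0.11 ± 0.11 in fed mice. Tdo2 and Acadsb did not pass, at -0.37 ± 0.09 (adjusted p = 0.0673) and -0.30 ± 0.09 (adjusted p = 0.148) in fed mice.

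These last 3 calls were fragile. The Kmo call held only without wild-type fasted mouse 1, 2, 3 or 5 or knockout fed mouse 2 and was lost without each of the other 11 mice (0.35 to 0.40, adjusted p 0.0501 to 0.092). That of Acmsd held without wild-type fed mouse 2, wild-type fasted mouse 1, 2 or 3 or knockout fed mouse 3 and was lost without the other 11 (0.93 to 1.17, adjusted p 0.0521 to 0.148), and that of Mccc1 held without wild-type fed mouse 1 or 3, knockout fed mouse 2 or 3 or knockout fasted mouse 1 and was lost without the other 11 (0.39 to 0.58, adjusted p 0.055 to 0.246). Without knockout fed mice 1 and 4, Kmo was 0.33 (adjusted p = 0.157), Acmsd 0.96 (adjusted p = 0.188) and Mccc1 0.56 (adjusted p = 0.0588). The calls also ended over all probe sets for Mccc1 (adjusted p = 0.081), Kmo (adjusted p = 0.0581) and Acmsd (adjusted p = 0.0879), for Mccc1 with quantile normalization (0.53, adjusted p = 0.0524) and in a fit of the 2 groups (adjusted p = 0.0998), and for Acmsd with an intensity trend and robust variance (adjusted p = 0.105). The mean score of Kupffer cell markers, 7 measured, also differed between genotypes in fed mice and overlapped in fasted mice. It was 0.39 to 0.48 in knockout fed, -0.06 to 0.16 in knockout fasted, -0.23 to -0.08 in wild-type fed and -0.54 to 0.09 in wild-type fasted mice. Clec4f and Cd5l rose in the fed knockout, by 0.88 and 0.85, Clec4f in the fasted knockout by 0.54, and 3 of the 7 in the mean of both. Of all genes, 0.451%, 0.351% and 0.963% rose in these comparisons. Marco went the other way in fasted mice, at -0.43, and stood at -0.05 in the mean. Timd4 did not pass, at 0.27 in fed and 0.20 in fasted mice. None of the 7 was under the dim limit. Of 5 measured markers of sinusoidal endothelium, Lyve1 rose in the mean of both (0.53, adjusted p = 0.0316), and their score was 0.12 to 0.17 in knockout fasted and -0.32 to -0.05 in wild-type fasted mice, against -0.16 to 0.25 in knockout fed and -0.20 to 0.22 in wild-type fed mice; none was under the dim limit. The part of these markers in the values of Kmo, Acmsd and Mccc1 was not tested.

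**Figure D5:**
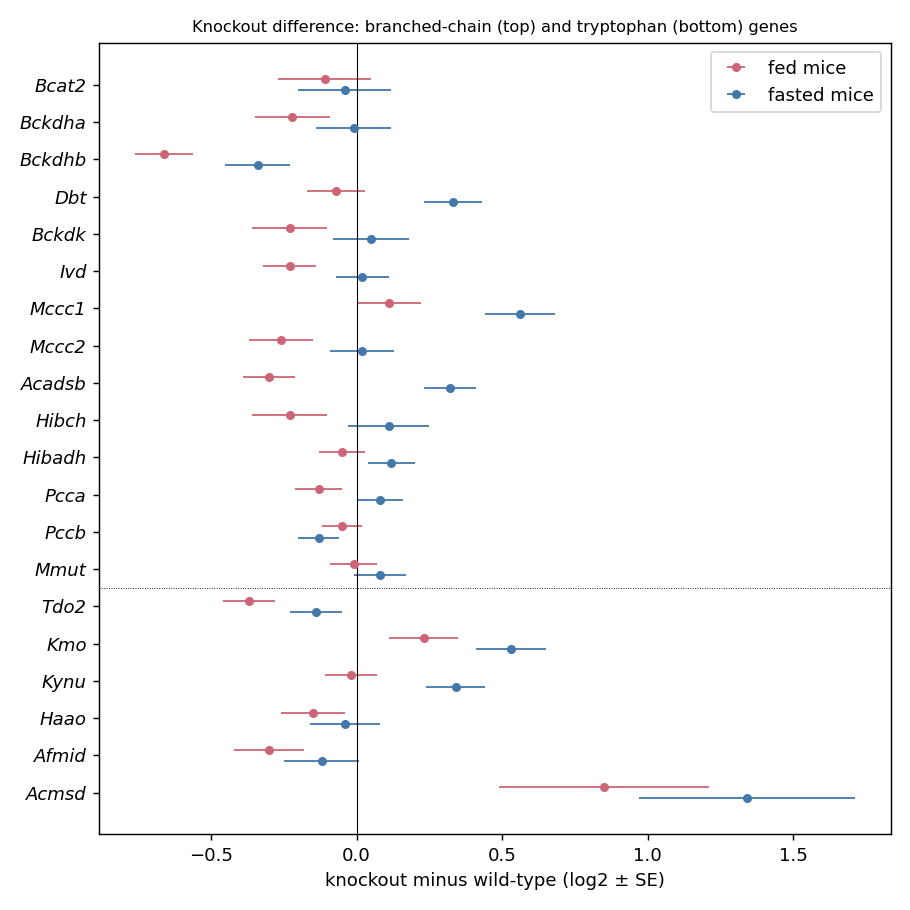
Knockout minus wild-type difference in log2 units with SE bars, in fed mice and in fasted mice, for 14 branched-chain and propionate genes (above the dotted line) and 6 tryptophan genes (below it). In fed mice 13 of the 14 branched-chain genes lie below 0, with Bckdhb lowest at -0.66, and in fasted mice 10 of the 14 lie above 0, with Mccc1 highest at 0.56.

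Across the branched-chain group the knockout differences had a median of -0.18 in fed mice, with 13 of 14 below 0, and of 0.07 in fasted mice, with 10 of 14 above 0. Bckdhb in fed and Mccc1 in fasted mice were the values that passed. The sign was not particular to this group: in fed mice 39 of the 52 genes were below 0, with 5 of 5 for serine and glycine and 4 of 4 for histidine, against 47.7% of all genes. In fasted mice 28 of the 52 were above 0, against 43.0% of all genes, and the medians over all genes were 0.01 and -0.02. In the urea cycle no gene passed between genotypes with limma (0 of 7 at an unadjusted p under 0.05 in fed and 1 in fasted mice, against 13.2% and 10.4% of all genes), at differences of -0.16 to 0.06 and -0.19 to 0.24 and a smallest adjusted p of 0.445. Histidine, tyrosine, proline, methionine and glutamate genes also gave no call between genotypes. Values in the glutamate group included Glul at 0.33 ± 0.10 in fasted mice (adjusted p = 0.197), where its second probe set gave 0.31.

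A second list held 37 measured genes beside the members, mostly of the same pathways. With fasting 5 rose and 6 fell in wild-type mice (3.30% and 5.92% of all genes, 5.58% and 10.6% of the brighter genes). In knockout mice 4 rose and 2 fell (1.87% and 1.80% of all genes, 3.49% and 3.36% of the brighter genes). Gpt2, the mitochondrial alanine aminotransferase, rose by 0.85 ± 0.17 and 0.72 ± 0.19, Etfdh, which passes electrons from acyl-CoA and sarcosine dehydrogenases to ubiquinone, by 0.46 ± 0.09 and 0.51 ± 0.10, and Cdo1, cysteine dioxygenase, by 0.28 ± 0.07 and 0.33 ± 0.08. Hsd17b10, of isoleucine breakdown, rose by 1.04 ± 0.17 in wild-type mice and stood at 0.64 ± 0.19 in knockout mice (adjusted p = 0.072). Sardh, sarcosine dehydrogenase, rose by 0.46 ± 0.10 in wild-type and was at -0.10 ± 0.12 in knockout mice, and Dhtkd1, of lysine breakdown, rose in knockout mice by 0.54 ± 0.12. Mmab and Gatm fell in both genotypes. Mmab, which makes the cobalamin cofactor of Mmut, fell by -0.78 ± 0.13 and -0.90 ± 0.15, and Gatm, which joins arginine and glycine in creatine synthesis, by -0.77 ± 0.13 and -0.60 ± 0.15. Kyat1, a kynurenine aminotransferase, fell by -0.88 ± 0.13 in wild-type mice, Bco2, a carotenoid-cleaving enzyme that the list held although it breaks down no amino acid, by -0.79 ± 0.12, Mmaa by -0.53 ± 0.10 and Aldh1l1, of folate metabolism, by -0.40 ± 0.10. Tat, tyrosine aminotransferase, stood at 0.39 ± 0.13 and did not pass (adjusted p = 0.0836).

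Gatm was the gene of this second list with a genotype difference in fasted mice. It averaged 6.42 ± 0.31 (SD, n = 4) in wild-type fed, 5.65 ± 0.08 (n = 5) in wild-type fasted, 6.93 ± 0.27 (n = 4) in knockout fed and 6.33 ± 0.09 (n = 3) in knockout fasted mice. The knockout was higher by 0.68 ± 0.14 in fasted mice (adjusted p = 0.0441) and by 0.60 ± 0.10 in the mean of both states (adjusted p = 0.00431). Csad, which makes hypotaurine, was lower in the mean of both states, by -0.78 ± 0.19 (adjusted p = 0.0471). The fasted call of Gatm was lost without any of 12 single mice and that of Csad without any of 13, while Gatm in the mean of both states kept its call without each mouse. In knockout mice the fasting calls of Gpt2, Gatm, Dhtkd1 and Cdo1 were each lost on leaving out any 1 of 10, 6, 5 and 4 mice. Without knockout fed mice 1 and 4 those 4 calls and that of Etfdh were lost: Gpt2 stood at 0.67 (adjusted p = 0.232), Gatm at -0.45 (adjusted p = 0.282), Dhtkd1 at 0.39 (adjusted p = 0.216), Cdo1 at 0.30 (adjusted p = 0.169) and Etfdh at 0.43 (adjusted p = 0.118). Csad also lost its call there, at -0.74 (adjusted p = 0.176). Cdo1 lost its wild-type call with arrays centred on the common median (0.24, adjusted p = 0.0594) and its knockout call in a fit of the 2 groups (0.33, adjusted p = 0.129). With the replicate number as a block Gatm lost its knockout call in fasted mice (0.68, adjusted p = 0.136) and its fasting call in knockout mice (-0.59, adjusted p = 0.0763), and Gpt2 lost its fasting call in knockout mice (0.74, adjusted p = 0.0577). In wild-type mice Aldh1l1 was lost without fed mouse 2 (-0.33, adjusted p = 0.0649) or 3 (-0.38, adjusted p = 0.0559).

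Regulators of amino acid catabolism were read beside their targets, 12 in all. In wild-type mice 6 rose and 2 (Nr3c1 and Ppard) fell with fasting (3.30% and 5.92% of all genes, 5.58% and 10.6% of the brighter genes). In knockout mice 2 rose and none fell (1.87% and 1.80% of all genes, 3.49% and 3.36% of the brighter genes). Klf15, a fasting-induced factor known to act on amino acid breakdown, rose by 0.59 ± 0.11 in wild-type (adjusted p = 0.00239) and 0.48 ± 0.12 in knockout mice (adjusted p = 0.0419). Cebpb, a C/EBP factor induced by glucagon and glucocorticoids, rose by 0.99 ± 0.18 in the wild type (adjusted p = 0.0021), whereas it stood at 0.22 ± 0.21 in knockout mice, where fed mice averaged 7.09 ± 0.48 (SD) against 6.51 ± 0.33 in wild-type fed mice. The interaction of Cebpb did not pass, at -0.77 ± 0.28 (adjusted p = 0.3). Creb3l3 rose by 0.50 ± 0.09, Hnf4a by 0.56 ± 0.13 and Foxo1 by 0.51 ± 0.13 in wild-type mice, and Nr3c1, the glucocorticoid receptor, fell by -0.29 ± 0.08. Ppara, the fatty acid receptor of fasting, rose by 1.00 in wild-type and 0.90 in knockout mice. Ppargc1a, at 0.66 ± 0.29 and 0.83 ± 0.32, did not pass, and no regulator passed between genotypes. In knockout mice the call of Klf15 was lost on leaving out any 1 of 9 mice, and without fed mice 1 and 4 together it stood at 0.47 (adjusted p = 0.207). Ppara lost its knockout call without fasted mouse 1 (0.88, adjusted p = 0.0577) or 2 (0.88, adjusted p = 0.0678), and without fed mice 1 and 4 it stood at 0.58 (adjusted p = 0.122). In wild-type mice Nr3c1 lost its call without any 1 of 6 mice, with quantile normalization (-0.23, adjusted p = 0.109) and with an intensity trend and robust variance (adjusted p = 0.0509), and Foxo1 without fed mouse 1 (0.43, adjusted p = 0.079). Ppard lost its wild-type call without fed mouse 2 (-0.41, adjusted p = 0.0918), fed mouse 3 (-0.47, adjusted p = 0.0954) or fasted mouse 2 (-0.50, adjusted p = 0.0572), with quantile normalization (-0.47, adjusted p = 0.0504) and with the replicate number as a block (-0.54, adjusted p = 0.0783).

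Markers of hepatocyte position gave mixed values. Of 7 genes of hepatocytes around the central vein, Cyp2e1, Oat and Slc1a2 rose in fasted wild-type mice, by 0.21, 0.94 and 0.71. The others did not pass, with Cyp1a2 at -0.47, Lgr5 at -0.30, Glul at -0.09 and Axin2 at 0.00. Of 3 measured genes of hepatocytes near the portal vein Hsd17b13 rose by 0.37, Cyp2f2 fell by -0.56 and Hal stood at -0.18. Among all genes 3.30% rose and 5.92% fell in that comparison (5.58% and 10.6% of the brighter genes). Cyp2f2 was higher in knockout than in wild-type fasted mice by 0.60. The score of the portal list was 0.15 to 0.27 in knockout fasted, -0.22 to 0.03 in wild-type fasted, -0.19 to 0.10 in wild-type fed and -0.15 to 0.23 in knockout fed mice; Hal is a member of that list and Oat and Glul of the other. Clec4g of sinusoidal endothelium and Col3a1 of stellate cells fell in fasted wild-type mice, by -0.85 (adjusted p = 0.0125) and -0.80 (adjusted p = 0.0208). Each was the only gene of its list of 5 that passed there. The other endothelial markers stood at -0.17 (Stab2), -0.12 (Pecam1), 0.05 (Lyve1) and 0.08 (Kdr). The other stellate cell markers stood at -1.07 to -0.13. Their score was 0.97 in wild-type fed mouse 4, against -0.13 to 0.32 in the other wild-type fed mice, and differences without that mouse are not given. The part of these markers in the changes of the catabolic genes was not tested.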

How the data were processed

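Liver RNA of 16 mice was measured on 1 array per mouse. The authors deposited 1 linear intensity per probe set and array; RMA is the tool that the submitters' processing notes name. The sources used here give neither its version nor a genome build. Array medians of intensity ran from 8.08 to 8.61. Log2 of the deposited intensities was taken. Of 35519 probe sets, 21780 were annotated to 1 gene, 1605 to several and 12134 to none; the probe set with the highest mean stood for each of 19935 genes. limma 3.58.1 in R 4.3.3 fitted 4 group means to all arrays (12 residual and 4.55 prior degrees of freedom), and 6 contrasts were tested, two-sided, with Benjamini-Hochberg adjustment over all genes. The fit was tested on simulated data. The number of arrays limits the precision, and p-values measure the spread between mice.

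Members and lists were chosen with earlier results of these data known. Every member that passed in at least 1 contrast is given by mouse, and the others by range. Genes of the second list and regulators are named where they passed; Tat, Ppargc1a and the markers were named after their values were seen. Genes were taken as dim under a mean log2 of 2.79 (40th percentile). Promoter windows come from RefSeq (GRCm38.p6), for 43 of the 52 genes; 1 window is not reported here. Alternatives were quantile normalization, median centring, no dim genes, all probe sets, the median of probe sets, array weights, a robust variance with an intensity trend, a replicate block, 2-group fits, and leaving out mice.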

Additional observations from a re-analysis of the deposited data

Results flagged for a closer look

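In groups of 4 or 5 mice, a lowest or highest value whose gap to its neighbour was large against the group's range was looked for in the 20 members that passed a test, 60 groups in all; chance gives about 1 in 20. The search returned 2. Hpd was 11.36 in wild-type fed mouse 1, against 11.51 to 11.53 in the other wild-type fed mice, and without that mouse the fasting difference of Hpd was 0.20 (limma adjusted p = 0.0879). Oat was 9.48 in wild-type fed mouse 3, against 9.77 to 9.83 in the others, and the fasting difference of Oat in wild-type mice was 0.86 to 1.07 over the fits that left out 1 mouse each, with an adjusted p of at most 0.00211.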

How the results depend on the processing

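The count of members that passed was recomputed under each alternative. Leaving out 1 mouse gave 12 to 18 for fasting in wild-type mice (17 with all mice), 3 to 7 for fasting in knockout mice (5), 1 to 2 for the knockout in fed mice (1), 0 to 2 in fasted mice (1), 1 to 3 for the mean of both (3) and 0 for the interaction (0, with 10 at an unadjusted p under 0.05). Without knockout fed mice 1 and 4 the counts were 2 for fasting in knockout mice, 0 for the knockout in fasted mice and 1 for the mean of both. Testing all probe sets gave 0 for the knockout in fasted mice and 1 for the mean of both, where more features are adjusted for; the fit of 2 groups gave 0 in fasted mice. An intensity trend with robust variance gave 2 in fasted mice, and array weights gave 2 in fasted mice and 5 for the mean of both; the cause was not tested. Of the 27 calls of members, 13 held under every alternative in which they could be fitted and none turned its direction. The labels do not say whether mice with the same replicate number are paired. Over 21 such pairs the correlation of their deviations was -0.253 to 0.231 (median 0.074). Over 74 pairs with different numbers it was -0.341 to 0.29 (median -0.042). These correlations cannot exclude pairing. With the replicate block the counts were 15 and 5 for fasting in wild-type and knockout mice, 3 for the mean knockout difference, 0 for the interaction, and 1 each for the knockout in fed and in fasted mice; among members the block ended the wild-type fasting calls of Afmid (0.45, adjusted p = 0.0547) and Acmsd (-1.16, adjusted p = 0.061) and the mean knockout call of Acmsd (1.09, adjusted p = 0.0594). The values are intensities, and with 3 to 5 mice a group, small changes on the log2 scale were near the limit of what passed.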
